A study of Mus musculus with 4 samples.

Results

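The 6 genes described here are Cd4, Cd8a and Cd8b1, which encode the T cell coreceptors, and Zbtb7b, Runx3 and Gata3, which encode transcription factors of the CD4 and CD8 lineage choice. They were listed by name, not by how they behaved, and are 6 of 31053 genes in the deposited tables of unique molecule (UMI) counts. They were followed in thymocytes from wild type thymi that had been transplanted and kept in the host for 28 days, in 2 conditions. In autonomy the graft goes on making T cells without new progenitors, and in turnover incoming progenitors replace its thymocytes. The cells were labelled as sorted DN3-DN4 (double negative), immature single positive (ISP) and double positive thymocytes, from 1 droplet 5′ gene expression library per condition with a matched library of rearranged T cell receptor (TCR) chains. The labels give the same wild type thymi for both conditions and name no strain, host genotype or age, nor the number of animals.

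With 1 library per condition there is no replicate check and no test. Intervals are 95%, exact unless stated, and cover counting error only. Autonomy had 4414 barcodes with at least 1000 UMIs (median 2430 UMIs, 16260384 in all), and turnover had 4227 (median 2112, 20057936 in all). Xist was detected in 40.9% of autonomy cells and in none of the turnover cells, and 959 autonomy cells had Y-linked transcripts, so the autonomy library mixes cells of both sexes. Among autonomy cells with a productive TCR beta (TRB) chain, 2637 of 3207 shared it with another cell of the library, against 125 of 3726 in turnover, so autonomy cells are not independent. Whether sex mixture or clone size has a part in any difference below was not tested beyond the recalculations given.

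CD4 binds MHC class II and CD8, a pair of an alpha chain (Cd8a) and a beta chain (Cd8b1), binds MHC class I, and both bring the kinase Lck to the receptor. Thymocytes start without coreceptors, pass in mice through an immature stage with CD8 alone, become double positive, and after a TCR signal lose one coreceptor. Zbtb7b (ThPOK) holds cells in the CD4 lineage, Gata3 acts before it and is needed for CD4 cells, and Runx3 silences Cd4 and Zbtb7b and activates the CD8 genes.

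The genes lie at chr6:124864693-124888247 (Cd4), chr6:71373427-71379171 (Cd8a), chr6:71322788-71337492 (Cd8b1), chr3:89377644-89393673 (Zbtb7b), chr4:135120645-135177990 (Runx3) and chr2:9857078-9887953 (Gata3) in GRCm38.p6, per RefSeq. Promoter windows were listed in RefSeq for Cd8a, Gata3, Zbtb7b and Runx3, each 250 bases upstream to 50 bases downstream of a start, and Zbtb7b and Runx3 have a pair of starts each. The letters of the RUNX core motif, TGTGGT or its reverse complement ACCACA, were searched on both strands, since Runx3 binds it. The window at the outer Runx3 start (chr4:135120395-135120694, plus strand) holds 2 matches and that at the inner Zbtb7b start (chr3:89387622-89387921, minus strand) holds 1. The Cd8a window (chr6:71373177-71373476, plus strand) and the other 3 windows hold none. Of 32851 RefSeq windows of this length, 16.8% hold at least 1 match and 1.78% at least 2. The 3 windows below are shown because Runx3 and Cd8a are higher in S1pr1-positive than in Itm2a-high autonomy cells and Zbtb7b is the opposing factor. Capitals mark the matches. A match describes the letters only.
Runx3: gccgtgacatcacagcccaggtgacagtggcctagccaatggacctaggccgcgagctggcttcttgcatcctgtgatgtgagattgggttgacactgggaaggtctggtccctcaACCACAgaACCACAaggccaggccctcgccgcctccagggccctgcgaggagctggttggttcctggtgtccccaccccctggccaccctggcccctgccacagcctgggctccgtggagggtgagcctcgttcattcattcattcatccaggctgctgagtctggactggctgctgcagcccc
Zbtb7b: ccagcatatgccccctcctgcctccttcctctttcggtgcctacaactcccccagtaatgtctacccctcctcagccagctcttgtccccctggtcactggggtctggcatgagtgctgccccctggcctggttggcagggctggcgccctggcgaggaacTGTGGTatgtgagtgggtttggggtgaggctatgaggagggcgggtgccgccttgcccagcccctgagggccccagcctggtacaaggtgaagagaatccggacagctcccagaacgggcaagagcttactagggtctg
Cd8a: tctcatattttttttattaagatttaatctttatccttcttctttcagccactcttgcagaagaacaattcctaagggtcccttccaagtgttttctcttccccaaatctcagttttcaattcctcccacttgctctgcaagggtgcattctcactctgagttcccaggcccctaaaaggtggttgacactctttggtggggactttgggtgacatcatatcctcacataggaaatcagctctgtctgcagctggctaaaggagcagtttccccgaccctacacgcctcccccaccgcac

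Cells were placed in stages by genes other than the 6 members, in a fixed order. Droplets with at least 5 UMIs of 8 macrophage genes were set aside first. S1pr1-positive cells had at least 1 UMI of S1pr1, the receptor that mature thymocytes use to leave the thymus. Itm2a-high cells had at least 3 UMIs and 5 per 10000 of Itm2a, which is induced by TCR signals. Il2ra-high cells had at least 5 UMIs and 3 per 10000 of the interleukin-2 receptor chain of DN3 cells. Cycling cells had at least 10 UMIs and 30 per 10000 over 20 cell cycle genes. Of the rest, those with a Rag1 UMI were called resting Rag1-positive and those without were left ungated.

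The autonomy library held 46 Il2ra-high, 208 cycling, 3246 resting, 191 Itm2a-high, 95 S1pr1-positive and 519 ungated cells, and the turnover library held 72, 622, 2733, 136, 3 and 652. At the Itm2a gate, 26 autonomy and 53 turnover cells had exactly 3 UMIs and 72 and 136 had 1 fewer, and 37 of the autonomy S1pr1-positive cells had 1 S1pr1 UMI. The 3 turnover S1pr1-positive cells are described but not compared. The droplets with macrophage transcripts, 109 in autonomy and 9 in turnover, also held coreceptor UMIs, with Cd4 at 713 and 637 UMIs per 1000000 UMIs.

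Per 1000000 UMIs, Cd4 and CD8 transcripts were highest in resting cells of both libraries. They differed most clearly from each other in S1pr1-positive autonomy cells. In autonomy, Cd4 was at 66.4 UMIs per 1000000 UMIs of the stage (CPM) in Il2ra-high, 88.3 in cycling, 960.9 in resting, 148 in Itm2a-high and 27.5 in S1pr1-positive cells. In turnover it was at 29.3, 88.4, 860.2 and 158 in the first 4 of these stages. Resting cells thus had the highest level in both libraries, and S1pr1-positive autonomy cells the lowest autonomy level.

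Cd8a, the alpha chain, was at 561, 1056, 3474, 556 and 1018 CPM in the same 5 stages of autonomy and at 137, 1129, 3628 and 869 in the first 4 of turnover. Cd8b1, the beta chain, was at 589, 895, 4617, 427 and 1422 CPM in autonomy and at 197, 1172, 5699 and 1003 in turnover. In autonomy, both CD8 genes were higher in S1pr1-positive than in Itm2a-high cells, and Cd4 was lower. Whether S1pr1-positive cells came from cells of the other stages was not tested. In the 3 turnover S1pr1-positive cells, 19 UMIs of Cd8a, 10 of Cd8b1 and none of Cd4 were counted.

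**Figure D1:**
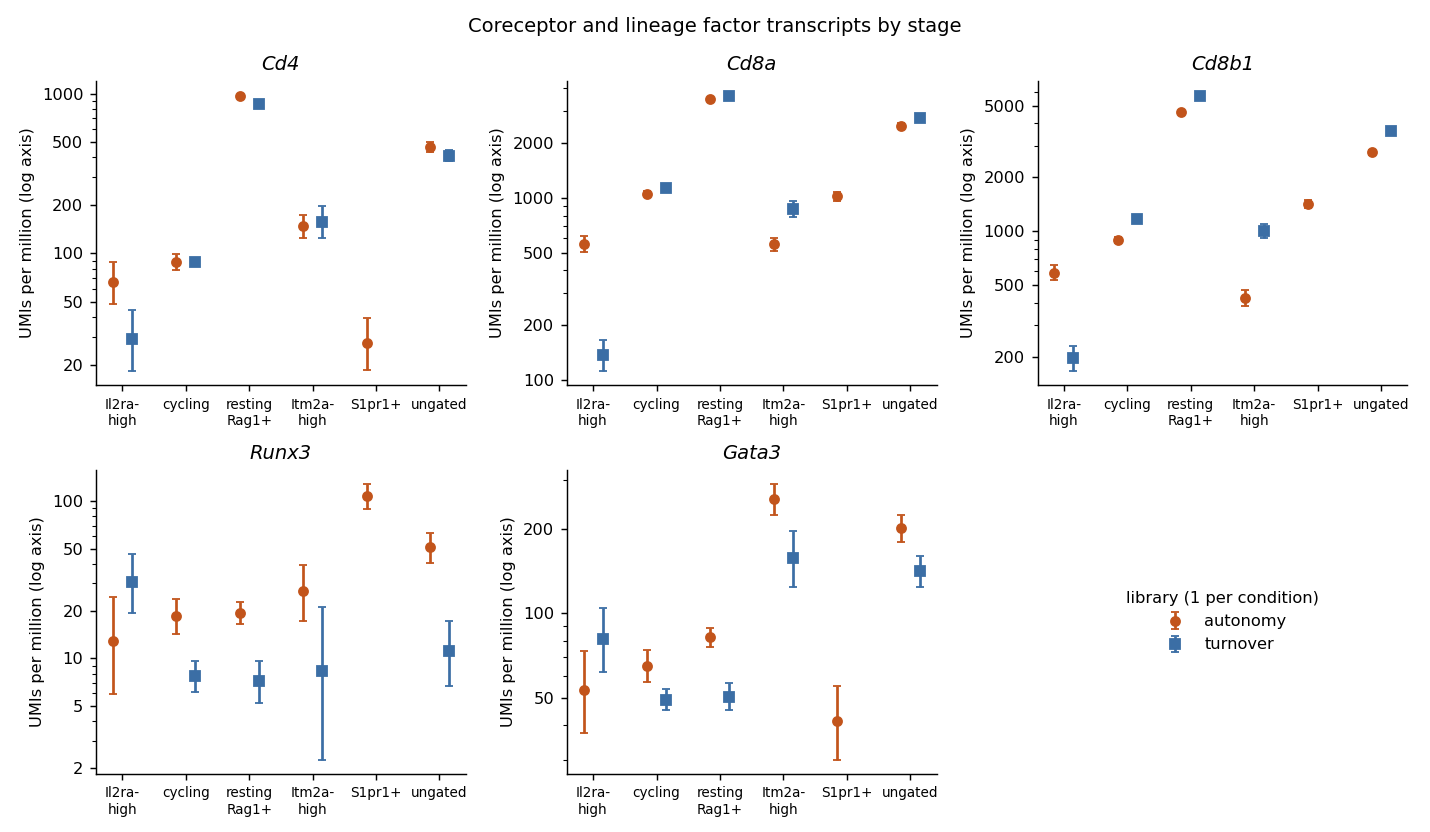
CPM (log axis) of 5 members by stage in autonomy (circles) and turnover (squares), 1 library each, with 95% Poisson intervals of the counts. Resting Rag1-positive cells hold the highest Cd4, Cd8a and Cd8b1 levels in both libraries, Itm2a-high cells the highest Gata3 level and S1pr1-positive autonomy cells the highest Runx3 level (108). Zbtb7b, with 10 UMIs in all, and the 3 turnover S1pr1-positive cells are not drawn.

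From cycling to resting cells the coreceptor genes were higher, and the factors differed less. Resting over cycling, Cd4 was 10.9-fold higher in autonomy (9.71 to 12.2) and 9.73-fold in turnover (9.08 to 10.4), Cd8b1 5.16-fold and 4.86-fold, and Cd8a 3.29-fold and 3.21-fold. These 3 of 5 members were at least 2-fold higher in both libraries, where 33.4% of genes in autonomy and 28.5% in turnover were, and none was 2-fold lower, where 9.92% and 10.4% were. Runx3 was at a ratio of 1.05 in autonomy (0.777 to 1.42) and 0.928 in turnover (0.631 to 1.35), with 1 inside both intervals. Gata3 was at 1.26 in autonomy (1.08 to 1.47) and 1.03 in turnover (0.889 to 1.18). All 8 genes of the list on coreceptor signalling (Lck, Ptprc, Cd3e, Cd3g, Cd3d, Cd247, Zap70 and Themis) were also at least 2-fold higher in resting cells of both libraries.

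Immature cycling cells carried CD8 transcripts with or without Cd4, and none was found with Cd4 alone. Of cycling cells, 115 of 208 in autonomy (55.3%, 48.3 to 62.2) and 343 of 622 in turnover (55.1%, 51.1 to 59.1) had UMIs of Cd4 and of a CD8 gene. A further 43.3% and 42.4% had only Cd8a or Cd8b1, which is the transcript pattern of the ISP stage. Cells with Cd4 alone were 0 of 208 and 0 of 622, which allows shares of up to 1.44% and 0.482%.

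Cycling cells were deeply sampled, with medians of 14614 UMIs in autonomy and 15380 in turnover. Thinned to 1000 UMIs per cell, the share with both coreceptors was 12.0% in autonomy and 12.2% in turnover. The libraries thus held close shares at full and at equal depth.

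Rearranged chains were counted in these cycling cells by coreceptor state. A productive TCR alpha (TRA) chain, which is rearranged after TRB, was found in 11.3% of autonomy and 15.5% of turnover cycling cells with both coreceptors, and in 5.56% and 4.17% of those with CD8 alone. In both libraries the share with TRA was higher where Cd4 was present. The intervals overlapped in autonomy (6.16 to 18.6 and 1.83 to 12.5) and did not in turnover (11.8 to 19.7 and 2.10 to 7.33). A productive TRB chain was found in 58.9% of autonomy and 96.6% of turnover cycling cells with CD8 alone, and in 68.7% and 95.04% of those with both. Autonomy was lower in TRB in both states, and within each library the TRB intervals of these states overlapped.

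Most resting cells carried both coreceptors. They did in 2881 of 3246 autonomy cells (88.8%, 87.6 to 89.8) and in 2247 of 2733 turnover cells (82.2%, 80.7 to 83.6), and CD8 alone was found in 11.2% and 16.3%. Median depth was 2293 UMIs in autonomy and 1893 in turnover. At 1000 UMIs per cell the shares with both were 61.0% and 60.9%, so the gap at full depth was not seen at equal depth. Turnover also had 38 resting cells with neither coreceptor, against 1 in autonomy. Those 38 had a median of 8304 UMIs. A productive TRB chain was found in 7 of them and a productive TRA chain in 0, which allows a TRA share of up to 7.89%.

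**Figure D2:**
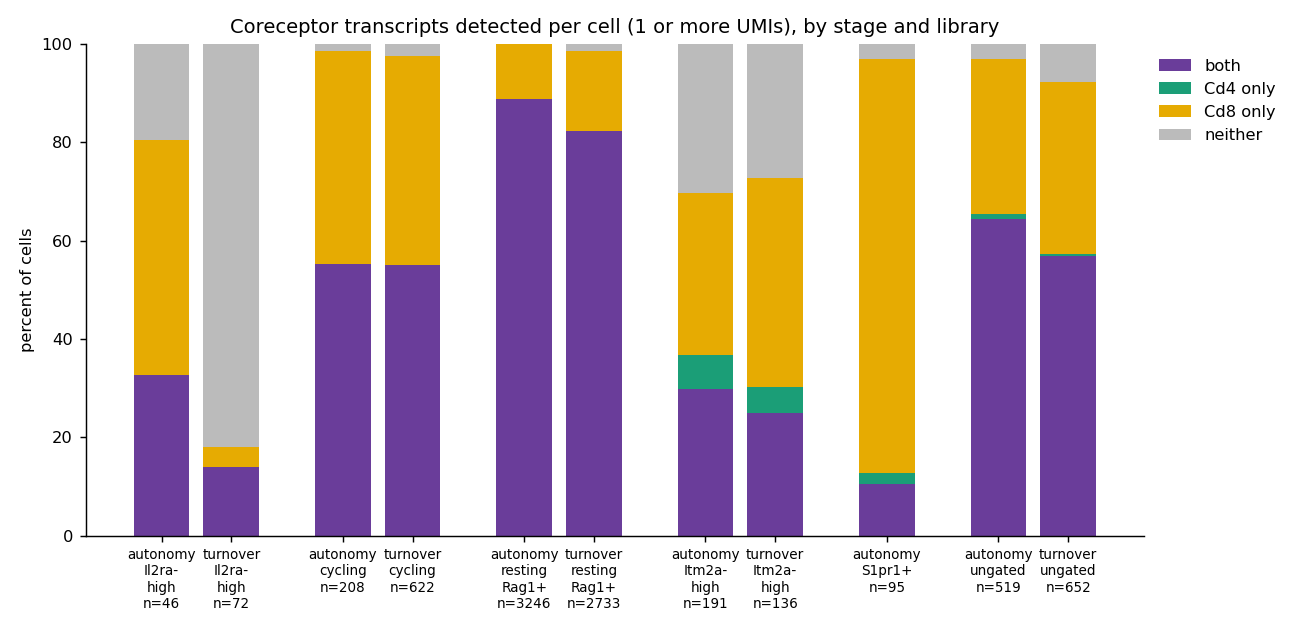
Percent of cells with UMIs of both coreceptors, Cd4 only, Cd8a or Cd8b1 only, or neither, by stage, with autonomy left of turnover and the number of cells under each bar. Cycling and resting cells are almost all CD8-positive, 30.4% of autonomy and 27.2% of turnover Itm2a-high cells have neither transcript, and 84.2% of S1pr1-positive autonomy cells have CD8 transcripts only.

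Between the libraries, the CD8 beta chain transcript was lower in autonomy and Runx3 and Gata3 were higher at 4 of 5 stages. In resting cells Cd8b1 was at 4617 CPM in autonomy and 5699 in turnover (ratio 0.810, 0.798 to 0.822). Per cell, the median was 45.5 UMIs per 10000 in autonomy and 63.4 in turnover. Cd8b1 was also lower in autonomy in cycling cells (895 and 1172, ratio 0.764), in ungated cells (2754 and 3645, ratio 0.756) and in Itm2a-high cells (427 and 1003, ratio 0.425, 0.372 to 0.486). In these 4 stages all 10 alternatives kept it below 1.

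Cd8a and Cd4 differed less between the libraries in resting cells. The direction for Cd8a and the size for Cd4 depended on the processing. Cd8a was at 3474 CPM in autonomy and 3628 in turnover (ratio 0.957, 0.941 to 0.974), but its ratio was 1.08 with stricter gates and 1.06 in barcodes of at least 2000 UMIs. Cd4 was at 960.9 and 860.2 (ratio 1.12, 1.08 to 1.16), and its ratio was 1.02 at 1000 UMIs per cell and 1.0 without the 5% of barcodes with the most UMIs. For scale, the median gene had a log2 ratio of 0.18 in resting cells, and with TMM scaling Cd4 was at 1.01.

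The proportion of alpha to beta chain transcripts does not depend on how the libraries are scaled. Autonomy had 0.752 Cd8a UMIs per Cd8b1 UMI in resting cells and turnover 0.637, a ratio of 1.18 (1.15 to 1.21, log-normal interval). In cycling cells the values were 1.18 and 0.963, in Itm2a-high cells 1.30 and 0.866, in Il2ra-high cells 0.953 and 0.696, and in ungated cells 0.901 and 0.749. Autonomy was thus higher at all 5 stages, with ratios of 1.182 to 1.505, and in all 9 alternatives at each of them. These proportions are not a comparison of protein chains or of transcript levels per length.

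Runx3 was the member with the largest ratio between the libraries in cycling, resting, Itm2a-high and ungated cells. It was at 19.5 CPM in autonomy and 7.16 in turnover in resting cells (157 and 45 UMIs, ratio 2.72, 1.95 to 3.88). In cycling cells it was at 18.6 and 7.71 (ratio 2.42, 1.72 to 3.39), and in ungated cells at 50.9 and 11.1 (ratio 4.59, 2.77 to 8.002). Of the 84 ungated autonomy UMIs, 66 lay in the 163 cells with CD8 alone. Runx3 was at 92.3 CPM in these and 7.27 in such turnover cells, and at 18.7 and 3.80 in ungated cells with both coreceptors. Whether this gate held different cells in the libraries was not tested. A Runx3 UMI was found in at most 9.25% of the resting or ungated cells of either library. The direction was the same in all 10 alternatives at each of the 3 stages, but the size was not: thinned to 1000 UMIs the ratio was 23.9 in cycling cells (8 and 1 UMIs) and 8.79 in ungated cells (21 and 3 UMIs), and counted once per TRB set it was 20.6 in ungated cells (44 and 6 UMIs).

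Gata3, which is also expressed before the lineage choice, was at 82.3 CPM in autonomy and 50.6 in turnover in resting cells (ratio 1.63, 1.42 to 1.87). In ungated cells it was at 201 and 142 (ratio 1.42), in cycling cells at 65.2 and 49.3 (ratio 1.32), and in Itm2a-high cells at 256 and 158 (ratio 1.63, 1.25 to 2.13). It stayed above 1 at these 4 stages in all 10 alternatives.

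Of the 5 members with at least 20 UMIs, 1 was at least 2-fold higher in autonomy in resting cells, Runx3, where 8.75% of 7231 genes with at least 200 UMIs were, and none was 2-fold lower, where 0.857% were. Runx3 was also the 1 member higher in cycling cells (5.52% of genes higher, 0.493% lower), in ungated cells (5.02% higher, 0.539% lower) and in Itm2a-high cells (4.33% higher). Its UMIs in these 3 stages were fewer than the 200 asked of these genes. With 1 UMI in each library as the only minimum, 17.7% of genes in cycling, 19.1% in ungated and 19.4% in Itm2a-high cells were at least 2-fold apart in either direction. Cd8b1 in Itm2a-high cells was the only member at least 2-fold lower in these 4 stages, where 0.816% of 1225 genes were. Zbtb7b stayed under 20 UMIs at every stage.

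**Figure D3:**
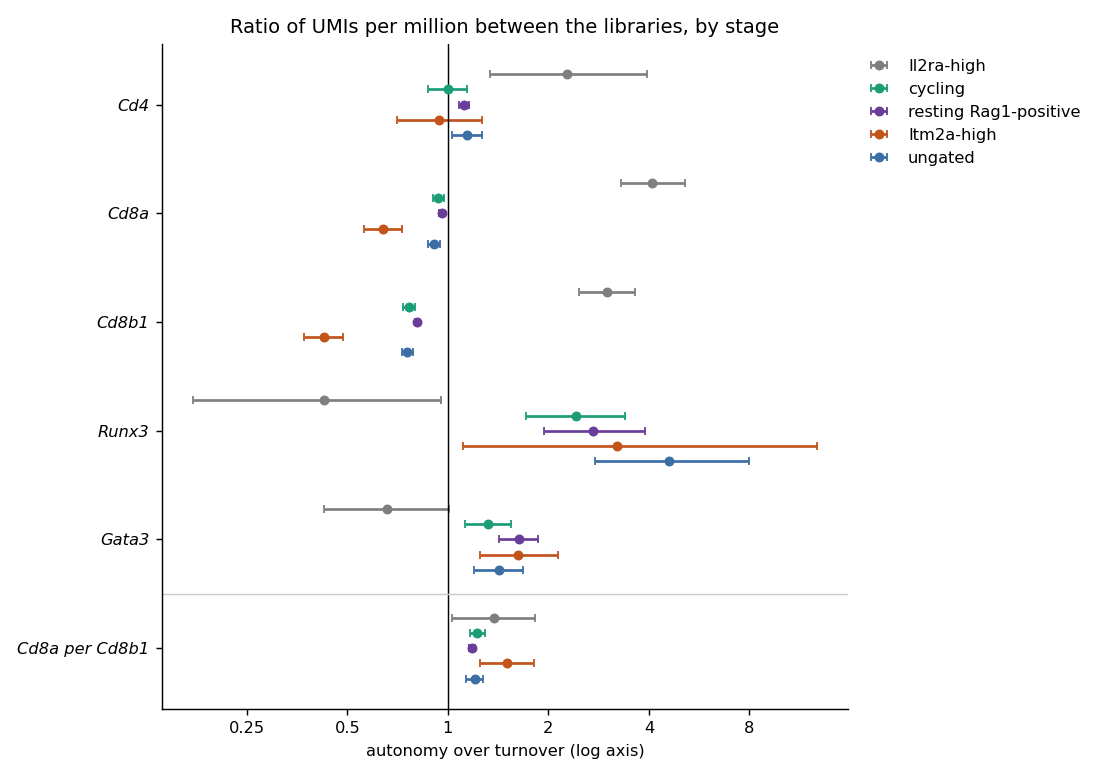
Ratio of CPM, autonomy over turnover (log axis), for 5 members at 5 stages, with 95% conditional exact intervals, and below the line the ratio of Cd8a UMIs per Cd8b1 UMI with a log-normal interval. Cd8b1 lies below 1 and Runx3 and Gata3 above 1 at every stage except Il2ra-high, and Cd8a per Cd8b1 lies above 1 at all 5.

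Il2ra-high cells differed the other way, and this gate held different cells in the libraries. Cd4 was at 66.4 CPM in autonomy and 29.3 in turnover (ratio 2.27), Cd8a at 561 and 137 (ratio 4.10) and Cd8b1 at 589 and 197 (ratio 2.99). Runx3 was at 13.0 and 30.6, from 9 and 23 UMIs (ratio 0.424, 0.173 to 0.952), and Gata3 at 53.4 and 81.2 (ratio 0.658, 0.425 to 1.01). Thus 3 of 5 members were at least 2-fold higher in autonomy, where 8.93% of 1131 genes were, and 1 was 2-fold lower, where 2.83% were. Neither coreceptor was found in 9 of 46 autonomy cells (19.6%) and 59 of 72 turnover cells (81.9%).

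In the same cells the 6 DN3 markers summed to 877 CPM in autonomy and 2366 in turnover (median cell 9.48 and 25.3 per 10000). The 3 gamma-delta markers summed to 75.03 and 857, and were found in 52.2% of autonomy and 91.7% of turnover cells. Their part in the difference was not tested. Only 17 of these cells in each library had a productive TRB chain, and counted once per TRB set 0 members were 2-fold higher and Cd8b1 was at a ratio of 0.841.

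Itm2a-high cells, which carry signs of a TCR signal, had low coreceptor transcripts and high Gata3. Itm2a-high over resting, Cd8b1 was at a ratio of 0.0924 in autonomy and 0.176 in turnover, Cd8a at 0.160 and 0.239, and Cd4 at 0.154 and 0.183. Gata3 was 3.11-fold higher in autonomy (2.67 to 3.61) and 3.12-fold in turnover (2.39 to 4.01). So 3 members were at least 2-fold lower, where 15.1% of genes in autonomy and 10.9% in turnover were, and 1 was higher, where 4.87% and 2.57% were. Runx3 had ratios of 1.37 (0.859 to 2.10) and 1.16 (0.303 to 3.18), with 1 inside both intervals.

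Genes of the CD4 lineage list, which includes Gata3, were high in Itm2a-high cells. Of its 10 genes with enough UMIs, 7 were at least 2-fold higher than in resting cells in autonomy and 7 in turnover, with 2 and 0 lower. The median log2 ratio was 2.25 in autonomy and 2.19 in turnover, beside -0.25 and -0.13 over all genes. For genes with 1 UMI in each group, 30.4% in autonomy and 26.0% in turnover were at least 2-fold apart in either direction. Cd5, a brake on TCR signals, was 12.6-fold and 14.8-fold higher, and Tox, needed for CD4 cells to form, 7.35-fold and 6.42-fold. Lef1 was 3.41-fold and 6.32-fold higher. Cd5 and Tox also belong to the markers of a TCR signal used here. On the CD8 list, Nkg7 and Ms4a4b were the 2 genes at least 2-fold higher in either library.

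Single Itm2a-high cells were mixed in their coreceptors. Both were found in 57 of 191 autonomy cells (29.8%, 23.5 to 36.9) and 34 of 136 turnover cells (18.0 to 33.1%). CD8 alone was found in 33.0% and 42.6%, Cd4 alone in 6.81% and 5.15%, and neither in 30.4% and 27.2%. Every one of these intervals overlapped between the libraries. Cells with neither had medians of 4281 UMIs in autonomy and 3032 in turnover, and 96.6% and 91.9% of them had a productive TRA chain. Their share was 53.4% in autonomy and 42.6% in turnover when thinned to 1000 UMIs, and 12.9% (4 of 31) and 23.6% (17 of 72) in cells with Y-linked UMIs and no Xist.

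Cd8a was detected more often in Itm2a-high cells with Cd4 than in those without. Among autonomy Itm2a-high cells, Cd8a was found in 52 of 70 cells with Cd4 (74.3%, 62.4 to 84.0) and in 49 of 121 without (40.5%, 31.7 to 49.8). In turnover it was found in 31 of 41 with Cd4 (75.6%, 59.7 to 87.6) and 48 of 95 without (50.5%, 40.1 to 61.0), and these turnover intervals overlap. Cells of 1 library share its depth and free RNA, so these shares are descriptions.

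Gata3 was detected in 109 of 191 Itm2a-high autonomy cells (57.1%, 49.7 to 64.2) and in 50 of 136 turnover cells (36.8%, 28.7 to 45.4). The median cell had 4217 UMIs in autonomy and 2898 in turnover. Thinned to 1000 UMIs the shares were 20.9% (15.4 to 27.4) and 15.4% (9.82 to 22.6), and these intervals overlap. By coreceptor state, Gata3 was found in 69.0% of autonomy and 40.5% of turnover cells with neither, in 55.6% and 32.8% of those with CD8 alone, in 43.9% and 41.2% of those with both, and in 9 of 13 and 2 of 7 of those with Cd4 alone. Thinned, these last were 1 of 7 and 3 of 8, too few to order the states.

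Runx3 was detected in 21 of 191 Itm2a-high autonomy cells (10.99%, 6.94 to 16.3) and in 4 of 136 turnover cells (2.94%, 0.807 to 7.36). Its level was 26.7 and 8.29 CPM, from 25 and 4 UMIs (ratio 3.22, 1.11 to 12.7), and counted once per TRB set the ratio was 2.12 with 1 inside its interval. Thinned to 1000 UMIs, 4 of 191 autonomy cells and 0 of 136 turnover cells kept a UMI, which is too few to compare. In autonomy, Runx3 was found in 8 of 57 cells with both coreceptors, 7 of 63 with CD8 alone, 2 of 13 with Cd4 alone and 4 of 58 with neither, and the intervals of these shares overlap. Gata3 was present in 11 of the 21 Runx3-positive cells (52.4%) and in 98 of 170 others (57.6%).

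Most S1pr1-positive cells were of 1 state, with CD8 transcripts and no Cd4. In autonomy 80 of 95 had CD8 alone (84.2%, 75.3 to 90.9), 10 had both, 2 had Cd4 alone and 3 had neither. At 1000 UMIs per cell, CD8 alone was again found in 80 of 95. Cd4 UMIs were found in 12.6% of these cells at a median of 11107 UMIs, and in 13.9% of turnover Il2ra-high cells at a median of 8918 UMIs. All 10 of those Il2ra-high cells also had CD8 transcripts and 8 had a productive TRB chain. Whether free RNA gave the Cd4 UMIs of S1pr1-positive cells was not tested. The 3 turnover cells all had CD8 alone.

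The sort was labelled for immature and double positive cells, and these cells carry mature genes. Of the markers of mature single positive cells, Klf2 was found in 92.6% of cells, Ccr7 in 87.4% and Il7r in 61.1%. The 6 double positive markers summed to 146, with Rag1 at 17.4. The 8 macrophage genes, Fcer1g among them, were at 0, but droplets with at least 5 UMIs of them had been set aside first. Low values of these genes here were thus in part fixed by the gate. Of 5 innate and NK markers, Il2rb was found in 70.5% of cells and Klrd1 in 40.0%, while Klrb1c and Fcer1g were at 0. Gamma-delta markers were found in 12.6% of cells. A productive TRB chain was found in 82 of 95 cells, in 82 different sets, and 5 of the 82 cells shared theirs with another cell of the library. Xist was detected in 62.1% of them.

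Runx3 was highest in these cells. It was detected in 55 of 95 (57.9%, 47.3 to 68.0), against 20.7% of autonomy and 11.1% of turnover cycling cells, which were sampled more deeply. Its level was 108 CPM in S1pr1-positive cells and 26.7 in Itm2a-high cells of the same library (118 and 25 UMIs, ratio 4.06, 2.62 to 6.52). The ratio lay between 2.19 and 5.66 in 9 alternatives, the lowest in cells with Y-linked UMIs and no Xist.

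Runx3 and the CD8 genes were found in the same S1pr1-positive cells. Of 80 cells with CD8 alone, 52 had Runx3 (65.0%, 53.5 to 75.3), and so did 3 of 10 with both coreceptors and 0 of 2 with Cd4 alone. Median depth was 11305 UMIs with CD8 alone and 11360 with both, but 6650 with Cd4 alone and 6387 with neither. Thinned to equal depth, Runx3 was found in 10 of 80 cells with CD8 alone and 0 of 2 with both. It was found in 0 of 1 with Cd4 alone and 0 of 12 with neither, too few to order the states. Cd8b1 was present in 55 of 55 cells with Runx3 and in 33 of 40 without, and Cd8a in 54 of 55 and 34 of 40. Each CD8 gene was found in 92.6% of all 95 cells, and whether depth had a part in these shares was not tested. Cd4 was present in 3 of 55 cells with Runx3 (5.45%, 1.14 to 15.1) and in 9 of 40 without (22.5%, 10.8 to 38.5), and these intervals overlap.

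Gata3 was low in S1pr1-positive cells, at 41.2 CPM beside 256 in Itm2a-high autonomy cells (ratio 0.161, 0.114 to 0.222). It was found in 27 of 95 cells (28.4%), below the 51.0% of autonomy cycling cells. None of the 12 cells with Cd4 had Gata3, which allows a share of up to 25%, and 26 of the 80 with CD8 alone had it. Gata3 was found in 14 of 55 cells with Runx3 and 13 of 40 without, so both factors could be detected in 1 cell.

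**Figure D4:**
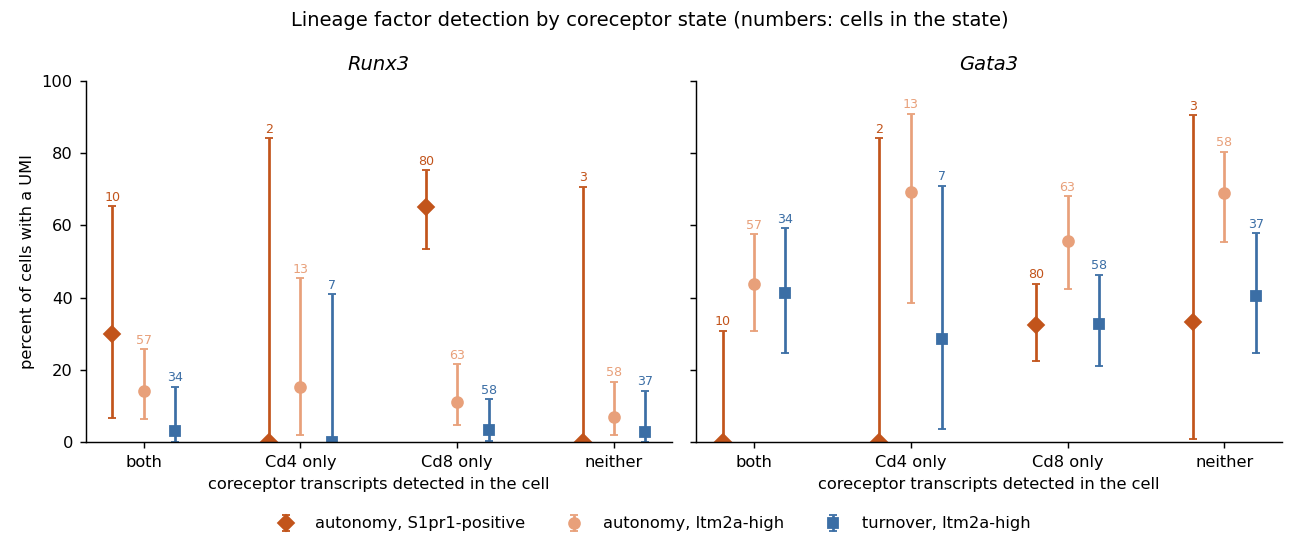
Percent of cells with a Runx3 (left) or Gata3 (right) UMI by coreceptor state in S1pr1-positive autonomy cells (diamonds), Itm2a-high autonomy cells (circles) and Itm2a-high turnover cells (squares), with 95% exact intervals and the number of cells above each. Runx3 reaches 65.0% in S1pr1-positive cells with CD8 alone, and Gata3 is at 69.2% in Itm2a-high autonomy cells with Cd4 alone (13 cells) and 69.0% in those with neither coreceptor (58 cells).

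Zbtb7b, the CD4 lineage factor, was almost absent. In all, 9 UMIs were counted in 8 autonomy cells and 1 UMI in 1 turnover cell. Of the autonomy cells, 2 were Itm2a-high and 2 were S1pr1-positive, and cycling, resting, ungated and macrophage-transcript droplets had 1 each. All 3 Itm2a-high cells with Zbtb7b, 2 in autonomy and 1 in turnover, had 3 or 4 UMIs of Cd4, 1 of them in autonomy also had 1 UMI of Cd8a, and none had Cd8b1 or Runx3. The S1pr1-positive cells were unlike each other. One had 2 UMIs of Cd4, 1 of Cd8b1 and no Runx3, and the other, with 23394 UMIs, had 2 of Cd8b1, 2 of Runx3, 5 of Gata3 and none of Cd4. No difference between the libraries can be read from counts this low.

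**Figure D5:**
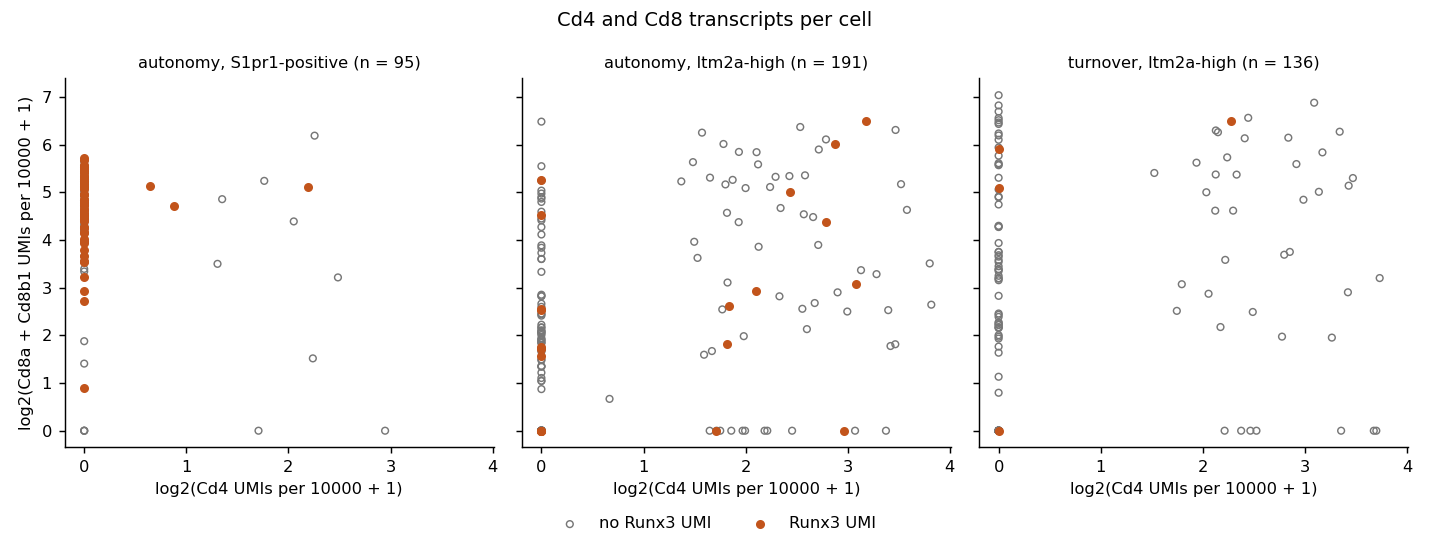
Each point is a cell, with log2 of Cd4 UMIs per 10000 plus 1 (x) and of Cd8a and Cd8b1 UMIs per 10000 plus 1 (y), orange where Runx3 was detected. S1pr1-positive autonomy cells (95) gather at 0 Cd4 and high CD8, and Itm2a-high cells of autonomy (191) and turnover (136) spread over both axes.

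Around the members, most CD8 list genes were higher and most CD4 list genes lower in S1pr1-positive than in Itm2a-high autonomy cells. S1pr1-positive over Itm2a-high in autonomy, Cd8b1 was 3.34-fold higher (2.99 to 3.73) and Cd8a 1.83-fold (1.65 to 2.04), and Cd4 was at 0.186 (0.121 to 0.277). At least 2-fold higher were 2 of 5 members, where 6.55% of 1604 genes were, and 2 of 5 were lower, where 12.5% were. The median gene had a log2 ratio of -0.36.

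On the CD8 lineage and cytotoxic list, which includes Runx3, 7 of 11 genes were at least 2-fold higher and 2 lower, with a median log2 ratio of 2.02. Nkg7, a granule protein of cytotoxic cells, was at 684 CPM in S1pr1-positive and 37.3 in Itm2a-high cells (18.3-fold). Klrd1, an NK receptor chain, was 24.1-fold higher from 84 and 3 UMIs (7.96 to 119), and Eomes, a factor of CD8 memory and NK cells, 7.12-fold. Itgae, the integrin chain CD103, had 205 UMIs in S1pr1-positive and 0 in Itm2a-high cells, at least 58.7-fold higher with 3 counts as the floor of the group. Ms4a4b was 9.43-fold higher and Prf1, perforin, 3.44-fold, and Ms4a4b is also a marker of mature cells here. Ccr9, a chemokine receptor, was lower at 0.211, as was Runx1 at 0.303, the RUNX factor of immature thymocytes.

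On the CD4 lineage list, 8 of 11 genes were at least 2-fold lower and 1 higher, with a median log2 ratio of -1.92. This list was itself high in Itm2a-high over resting autonomy cells (median log2 ratio 2.25). The fall from Itm2a-high cells is therefore no measure of a level below that of resting cells. Cd40lg, the helper ligand, was at 10.1 CPM in S1pr1-positive and 115 in Itm2a-high cells (ratio 0.0875), Tox at 81.6 and 674 (ratio 0.121), and Myb at 39.4 and 256 (ratio 0.154). Il6ra was the 1 higher gene, from 41 and 1 UMIs (35.2-fold, 5.98 to 1425). Of 16 regulators of the coreceptor genes, 9 were lower and 0 higher. Satb1, a chromatin organiser, was at 0.194 and Patz1, a repressor of CD8 genes, at 0.255. Of 8 coreceptor signalling genes, 0 passed 2-fold in either direction, with ratios from 0.525 (Zap70) to 0.861 (Lck).

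Between the libraries, the CD8 list held the most genes at least 2-fold higher in autonomy in resting cells. The CD8 list had 4 of 9 genes at least 2-fold higher in autonomy and 0 lower. Besides Runx3 these were Actn1 (321 and 113 CPM, 2.84-fold), Ms4a4b (26.6 and 12.2, 2.17-fold) and Ccl5 (7.95 and 0.795, from 64 and 5 UMIs). Cbfb, the partner of RUNX factors, was 1.82-fold higher (1.60 to 2.08). The CD4 list had 2 of 9 higher, Zbtb7a (2.38-fold) and Izumo1r (6.44-fold, from 33 and 4 UMIs), and 0 lower. Its median log2 ratio was 0.70 and that of the CD8 list 0.87, beside 0.18 over all genes. Of all genes with at least 200 UMIs, 8.75% were at least 2-fold higher and 0.857% lower.

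Among 16 regulators, Tcf3, which encodes E proteins of early thymocytes, was the 1 higher in resting cells, at 266 and 67.7 CPM (3.92-fold, 3.53 to 4.37). Tet2, an enzyme of DNA demethylation, was the 1 lower, at 3.85 and 18.4 (ratio 0.209, 0.136 to 0.312). Tcf3 was also higher in cycling cells (3.79-fold) and Itm2a-high cells (5.30-fold, from 206 and 20 UMIs), and Tet2 was lower in cycling cells (0.392, from 5 and 40 UMIs). Of 8 signalling genes, 0 passed 2-fold in resting cells, and Zap70, a kinase recruited to the receptor, was nearest at 1.92-fold.

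In ungated cells 7 of 11 CD8 list genes were at least 2-fold higher in autonomy and 0 lower (median log2 ratio 1.62), among them Ms4a4b (308 and 46.7 CPM, 6.58-fold), Nkg7 (3.08-fold) and Ccl5, with 272 and 0 UMIs. In Il2ra-high cells 0 of 6 were higher and 3 were lower (median -1.05), which were Runx3, Nkg7 (20.2 and 197 CPM, ratio 0.103) and Ccr9 (0.289). The CD4 list had 1 of 9 higher in ungated cells, Izumo1r (9.24-fold), and 1 of 6 in Il2ra-high cells, Lef1 (4.42-fold), with 0 lower in either. Of all genes with at least 200 UMIs, 5.02% were higher and 0.539% lower in ungated cells, and 8.93% and 2.83% in Il2ra-high cells. With 1 UMI in each library as the only minimum, 19.1% and 25.5% were at least 2-fold apart in either direction.

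In cycling cells 4 of 7 CD8 list genes were 2-fold higher (Runx3, Actn1, Nkg7 and Ms4a4b) and 1 of 8 CD4 list genes, Izumo1r. In Itm2a-high cells these were 2 of 7 (Runx3 and Ms4a4b) and 1 of 10, again Izumo1r (242 and 62.2 CPM, 3.89-fold, 2.65 to 5.90). Izumo1r, the folate receptor FR4, is known from regulatory and anergic CD4 cells. Of all genes with at least 200 UMIs, 5.52% were 2-fold higher in cycling and 4.33% in Itm2a-high cells. With 1 UMI in each library as the only minimum, 17.7% and 19.4% were at least 2-fold apart in either direction.

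Across the 11 groups of a library and stage with at least 50 cells, macrophage-transcript droplets included, each member was set beside all genes by Pearson's r of log2(CPM + 10). These groups share libraries and depth, so r is a description. Cd8a and Cd8b1 were each other's nearest gene (r = 0.978). Next to Cd8a came Cdkn2d (0.961), a cell cycle inhibitor, and Mef2a (0.942), and next to Cd8b1 came Dnajc15 (0.971) and Tmem177 (0.952). Nearest to Cd4 were Kif5b (0.992), a kinesin, Wasf2 (0.977) and Ntrk3 (0.977). Nearest to Runx3 were Psmb10 (0.958), an immunoproteasome subunit, Xaf1 (0.948) and Tgtp1 (0.944), and nearest to Gata3 were Nr4a1 (0.910), an early gene of TCR signals, Hspa4l (0.904) and Gm43352 (0.896). None is named for Zbtb7b because of its 10 UMIs.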

How the data were processed

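The deposited gene expression tables hold whole-number UMI counts per gene and barcode, and the deposited V(D)J tables hold contigs with UMI counts and productive calls. Per the submitters' processing notes Cell Ranger 3.0.2, Seurat 3.1.3.9002 and mm10 were used. Barcodes with at least 1000 UMIs were kept, without doublet removal. The libraries shared 29 barcode sequences. V(D)J tables were joined to cells of the same condition by barcode.

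Members, lists and markers were chosen with earlier results of these data known, and gate thresholds were set after seeing the data. Some marker genes are not reported here. UMIs were summed per library and stage and divided by the UMI total. Ratios carry conditional exact binomial intervals, levels Poisson intervals and shares Clopper-Pearson intervals, all at 95%. A count of 0 allows up to 3 counts. Thinning drew 1000 UMIs per cell with stages kept. Named genes are the members, all listed genes with at least 20 UMIs (described by examples) and, per member, the 3 genes with the highest r. All-gene shares used genes with at least 200 UMIs. The ratio intervals and calls were tested on simulated independent Poisson counts, for genes with at least 200 UMIs. Such counts hold no clones or mixed cells, so this cannot show how the intervals behave with them or at lower counts. CPM divides by the stage's UMIs and multiplies by 1000000. Of 31053 symbols 25166 matched RefSeq (GRCm38.p6). Alternatives were other UMI minimums, stricter and looser gates, TMM factors from edgeR 4.0.16, thinning, removal of the 5% of barcodes with the most UMIs, macrophage-transcript droplets kept and detection at 2 UMIs. Cells with Y-linked UMIs and no Xist, and 1 barcode per set of TRB chains, were chosen as alternatives after seeing the data. Counting once per TRB set kept the first barcode of each set in a library, whatever its stage, and dropped all cells without a productive TRB chain. It left 870 autonomy and 3661 turnover cells, so its shifts also reflect a changed set of cells. The software was R 4.3.3, matplotlib 3.10.9 and scipy 1.17.1 with pandas 2.3.3, numpy 2.4.6 and Python 3.11.15.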

Additional observations from a re-analysis of the deposited data

Results flagged for a closer look

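The ratios of 3 members between the libraries lay on opposite sides of 1 in different stages, each with an interval that left out 1. The difference between stages itself was not tested. Cd8a, autonomy over turnover, was at 4.10 in Il2ra-high cells but at 0.957 in resting, 0.909 in ungated, 0.936 in cycling and 0.640 in Itm2a-high cells. Cd8b1 was at 2.99 in Il2ra-high cells but at 0.810, 0.756, 0.764 and 0.425 in the same 4 stages. Runx3 went the other way, at 0.424 in Il2ra-high cells but at 2.72, 4.59, 2.42 and 3.22 in the same 4 stages. DN3 and gamma-delta markers also differed between the libraries in Il2ra-high cells.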

How the results depend on the processing

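Of 3 coreceptor ratios between the libraries in resting cells, Cd4 stayed at or above 1 and Cd8b1 below 1 in all 10 alternatives, while Cd8a turned round in 3. Given as Cd4, Cd8a and Cd8b1, autonomy over turnover, the ratios were 1.287, 1.065 and 0.909 in barcodes with at least 2000 UMIs, 1.017, 0.869 and 0.731 thinned to 1000 UMIs, and 1.295, 1.078 and 0.921 with stricter gates. They were 1.044, 0.898 and 0.758 with looser gates, 1.0, 0.858 and 0.726 without the 5% of barcodes with the most UMIs, and 1.012, 0.867 and 0.734 with TMM factors. They were 1.209, 1.026 and 0.859 in cells with Y-linked UMIs and no Xist, and 1.045, 0.908 and 0.787 counted once per TRB set, where Cd8a per Cd8b1 was at 1.155. The causes were not tested.

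Thinned to 1000 UMIs, both coreceptors were found in 60.97% of autonomy and 60.92% of turnover resting cells, 12.02% and 12.22% of cycling cells, and 10.47% and 7.353% of Itm2a-high cells. With 2 UMIs asked of a coreceptor the shares were 64.23% and 55.21%, 33.17% and 35.85%, and 13.09% and 10.29%. In barcodes with at least 2000 UMIs the resting shares were 90.92% and 84.68%. Looser gates gave 33.50% in turnover Itm2a-high cells. In cells with Y-linked UMIs and no Xist, autonomy had 90.62% of resting and 38.71% of Itm2a-high cells with both, 90.91% of S1pr1-positive cells with CD8 alone, and Runx3 in 22.58% of Itm2a-high cells (7 of 31). Thinned, Gata3 was found in 20.94% of autonomy and 15.44% of turnover Itm2a-high cells, and Runx3 in 2.094% of autonomy Itm2a-high cells and 12.50% of S1pr1-positive cells with CD8 alone.

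The number of members at least 2-fold higher in autonomy was 0 in cycling and Itm2a-high cells when thinned, and 0 in Itm2a-high cells in those with Y-linked UMIs and no Xist or counted once per TRB set, where Runx3 fell under the 20 UMIs asked. It was 0 in Il2ra-high cells once per TRB set. Ratios whose interval left out 1 and that turned round elsewhere were Cd8a in ungated cells (1.050 at 2000 UMIs, 1.048 with stricter gates) and in cycling cells (1.077 once per TRB set), Cd4 in ungated cells (0.617 once per TRB set), and in Il2ra-high cells Cd4 (0.978 with Y-linked UMIs and no Xist), Cd8b1 (0.841 once per TRB set) and Runx3 (3.130 thinned, from 2 and 1 UMIs). Cd4, whose intervals held 1 at both stages, ranged from 0.822 to 1.28 in Itm2a-high cells (above 1 in 3 of 10 alternatives) and from 0.732 to 1.04 in cycling cells (above 1 in 6). Runx3 in Itm2a-high cells had no thinned ratio, since turnover kept 0 UMIs. With 1 UMI in each library as the only minimum, 19.0% of genes were at least 2-fold apart in resting cells, beside 9.61% with 200 UMIs.

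No paired analysis was possible because each condition has 1 gene expression library. Depth limits Runx3 and Zbtb7b, of which few UMIs were counted per cell.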
